A study of Homo sapiens with 2 samples.

Results

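The genes described here are the core of non-homologous end joining in H460, a line grown from a human large-cell carcinoma of the lung, measured after overexpression of PKP2. They are 10 genes, LIG4, XRCC4, XRCC5, XRCC6, PRKDC, NHEJ1, PAXX, DCLRE1C, POLL and POLM, of 22965 gene IDs in the count files, and each was found by its Ensembl ID (PAXX is C9orf142 in older annotation). RNA-seq counts came from 2 libraries: the PKP2 library, of H460 cells in which the pSin-puro vector delivered PKP2 (plakophilin 2, a desmosomal armadillo-repeat protein), and the vector library, of control H460 cells with the vector. Both cultures were at passage 5 in medium with serum, 1 library was made per group, and whether the cells were a pool or a single clone is not given in the sources used here. The series asks which genes lie downstream of PKP2.

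Non-homologous end joining reseals broken chromosomes without a template. The Ku ring, a dimer of the XRCC5 and XRCC6 proteins, slides onto the DNA end and recruits DNA-PKcs, the kinase encoded by PRKDC, which activates the Artemis nuclease (DCLRE1C) to trim ends. The polymerases of POLL and POLM fill gaps, and DNA ligase IV (LIG4), held by its scaffold XRCC4 and helped by the XRCC4-like proteins of NHEJ1 (also called XLF) and PAXX, seals the strands. In human cells this pathway repairs most of the breaks that ionising radiation makes.

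PKP2 itself (ENSG00000057294) had 1330 counts in the PKP2 library and 181 in the vector library, or 66.0 and 7.63 CPM (counts relative to the scaled library size). The PKP2 library was 8.66-fold higher (95% counting interval 7.41 to 10.2), in the direction of the labels. The PKP2 library held 20319137 counts and the vector library 23513304, and the end-joining genes took 0.232% and 0.222% of them. The 5 measured epithelial markers summed to 1233 CPM in the PKP2 library and 1224 CPM in the vector library, nearly all from keratin genes. These went both ways, with KRT19 at 578 and 274 CPM and KRT8 at 465 and 697 CPM, and EPCAM had only 16 and 28 counts and the lung lineage gene NKX2-1 only 3 and 10. Of markers of other cell types, the 4 measured fibroblast genes summed to 30.3 CPM in the PKP2 library and 52.3 CPM in the vector library. They too went both ways, with COL3A1 at 16.5 and 41.0 CPM and PDGFRB at 10.3 and 4.68 CPM. The 2 leukocyte genes summed to 20.5 and 15.4 CPM, nearly all from CD68 (LYZ had 0 and 4 counts), and the endothelial gene VWF had 0 and 2 counts. Both libraries are of a cultured line, and the part of these marker genes in the results was not tested. With 1 library per group there is no replicate check, no test across samples and no p-value, so ratios are given as PKP2 over vector on the log2 scale, with 95% intervals that cover counting error only. In bulk RNA, a smaller share of cells expressing a gene and less RNA of it per cell cannot be told apart.

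The end-joining genes differ widely in base composition, and the ratios of all genes in these libraries varied with it, so a stretch of coding sequence is shown for the highest ratio (LIG4), its scaffold (XRCC4), a gap-filling polymerase (POLM) and the lowest ratio (PAXX). Each is the first 120 bases of the gene's longest coding exon in its principal transcript (GENCODE release 29, GRCh38), 5′ to 3′ on the gene's strand, with G and C in capitals. The LIG4 stretch is in exon 3 of 3 on the minus strand (chr13:108211149-108211268) and begins at the start codon. That of XRCC4 is in exon 3 of 8 on the plus strand (chr5:83111028-83111147), that of POLM in exon 9 of 11 on the minus strand (chr7:44073906-44074025) and that of PAXX in exon 4 of 7 on the plus strand (chr9:136993053-136993172). G and C make up 48 of the 120 bases shown for LIG4, 49 for XRCC4, 69 for POLM and 77 for PAXX.
LIG4: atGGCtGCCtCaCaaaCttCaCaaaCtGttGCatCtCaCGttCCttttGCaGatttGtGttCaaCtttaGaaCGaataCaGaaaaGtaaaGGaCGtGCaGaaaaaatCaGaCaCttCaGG
XRCC4: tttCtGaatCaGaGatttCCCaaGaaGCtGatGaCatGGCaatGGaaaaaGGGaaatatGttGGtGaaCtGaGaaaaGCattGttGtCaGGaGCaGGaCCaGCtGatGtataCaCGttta
POLM: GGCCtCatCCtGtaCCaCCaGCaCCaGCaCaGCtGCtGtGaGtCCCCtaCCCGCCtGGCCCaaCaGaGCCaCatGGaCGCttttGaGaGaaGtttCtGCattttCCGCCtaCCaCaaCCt
PAXX: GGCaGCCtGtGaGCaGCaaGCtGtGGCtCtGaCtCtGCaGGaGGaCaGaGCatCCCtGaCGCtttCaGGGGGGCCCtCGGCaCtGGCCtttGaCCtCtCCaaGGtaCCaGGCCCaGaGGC

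Over whole principal transcripts, GC content was lowest in XRCC4 (35.5%) and LIG4 (36.2%), followed by DCLRE1C (43.7%), XRCC5 (44.2%), PRKDC (45.3%), NHEJ1 (48.8%) and XRCC6 (50.7%). It was highest in POLL (60.1%), POLM (61.4%) and PAXX (66.1%). At the third codon position the range was wider, with 30.3% G or C in LIG4, 30.4% in XRCC4, 72.1% in PAXX and 73.9% in POLM. Lengths also differed, from 812 bases and 7 exons in PAXX to 13509 bases and 86 exons in PRKDC, with 4180 bases and 3 exons in LIG4.

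All 10 genes were measured, and all passed the minimum of 10 counts as a mean over the libraries. Levels were compared between genes in TPM, counts divided by transcript length and scaled to the same sum in each library, and lay between 5.41 and 505 TPM. The Ku genes stood at the top. XRCC6 had 501 TPM in the PKP2 library (interval 492 to 510) and 505 TPM in the vector library (497 to 513), and XRCC5 had 459 TPM (452 to 467) and 384 TPM (378 to 390). PRKDC followed with 136 TPM in the PKP2 library and 122 TPM in the vector library. Together these 3 genes of the DNA-PK complex made up 89.3% of the members' summed TPM in the PKP2 library and 86.6% in the vector library.

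The ligation genes sat well below these. PAXX had 33.6 TPM in the PKP2 library (interval 29.5 to 38.0) and 63.5 TPM in the vector library (58.4 to 69.0). NHEJ1 had 25.7 TPM (23.4 to 28.1) and 23.8 TPM (21.8 to 25.8), and XRCC4 had 22.5 TPM (20.2 to 25.1) and 22.0 TPM (19.9 to 24.3). LIG4 had 22.8 TPM in the PKP2 library (21.3 to 24.4) and 15.0 TPM in the vector library (13.9 to 16.1), so it ranked 6 of 10 in the PKP2 library, level with XRCC4 within counting error, and 8 of 10 in the vector library, below XRCC4 and POLL. Of the end-processing genes DCLRE1C and POLM were the lowest members in both libraries, and POLL lay below LIG4 in the PKP2 library and above it in the vector library. The values were 14.4 TPM for POLL in the PKP2 library and 18.1 TPM in the vector library, 6.57 and 7.65 TPM for DCLRE1C, and 5.41 and 6.85 TPM for POLM. Intervals of neighbours overlapped for NHEJ1, LIG4 and XRCC4 in the PKP2 library, for NHEJ1 and XRCC4 in the vector library, and for DCLRE1C and POLM in both, so these orders are not resolved by counting. The order also depends on the transcript length used. With the coding length, XRCC5 (422 TPM) stood above XRCC6 (398 TPM) in the PKP2 library, and NHEJ1 stood above PAXX there (32.1 and 23.9 TPM). LIG4 (18.7 TPM) then stood below XRCC4 (19.6 TPM) in that library, and POLM stood above DCLRE1C in both libraries.

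**Figure D1:**
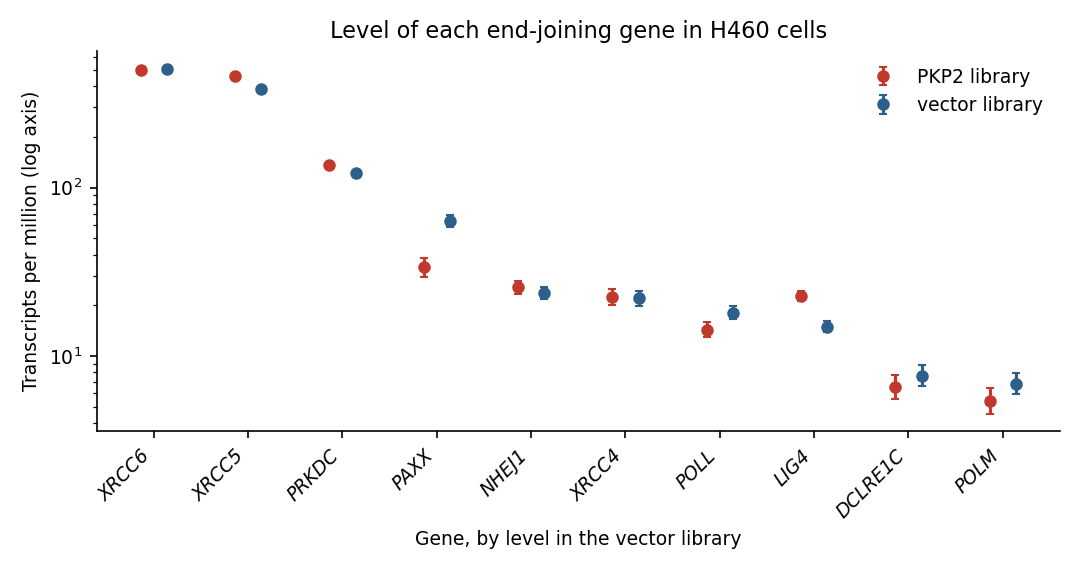
Level of each end-joining gene in TPM (log axis) in the PKP2 library (red) and the vector library (blue), ordered by the vector library. Points are single libraries and bars are 95% Poisson intervals of the count; XRCC6, XRCC5 and PRKDC lie above 100 TPM in both libraries, LIG4 is higher in the PKP2 library and PAXX higher in the vector library.

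No member was 2-fold higher or lower in the PKP2 library, against 2.47% of 15991 genes that were higher by that much and 4.61% that were lower. At 1.5-fold, no member was higher and 1, PAXX, was lower, against 6.87% of all genes higher and 12.9% lower. The median ratio of the 10 members was -0.03, and that of all 15991 genes also -0.03. Ratios were above 0 in 4 members and below 0 in 6, and ran from -0.96 to 0.57. As a group the end-joining core thus lay where most genes lay, with LIG4 at one end and PAXX at the other.

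LIG4 (ENSG00000174405), the ligase, had 863 counts in the PKP2 library and 687 in the vector library, or 42.9 and 28.96 CPM. Its ratio of 0.57 (interval 0.42 to 0.71), or 1.48-fold higher, was the highest of the members and exceeded that of 92.8% of all genes. The LIG4 transcripts share no 31-base stretch with another gene in the files, and no exon overlaps another such gene. XRCC4 (ENSG00000152422), the scaffold that stabilises LIG4 in cells, had 334 counts in the PKP2 library and 396 in the vector library, or 16.6 and 16.7 CPM, a ratio of -0.01 (interval -0.22 to 0.20). As measured, LIG4 was thus higher in the PKP2 library beyond counting error while its partner lay at the middle of all genes.

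NHEJ1 (ENSG00000187736), the XLF protein that forms filaments with XRCC4, had 487 counts in the PKP2 library and 547 in the vector library, 24.2 and 23.1 CPM, a ratio of 0.07 (interval -0.11 to 0.25). A read-through gene on the same strand, ENSG00000280537, overlaps its exons but held only 0 and 4 counts, and with these added the ratio was 0.06. Because 63.3% of the 31-base stretches of NHEJ1 occur in that gene or in others, its count is less certain. PAXX (ENSG00000148362), a smaller paralog that binds Ku, had 247 counts in the PKP2 library and 567 in the vector library, 12.3 and 23.9 CPM. Its ratio of -0.96 (interval -1.18 to -0.74), or 1.95-fold lower, was the lowest of the members, lay just inside 2-fold, and exceeded that of only 5.13% of all genes. PAXX shares no 31-base stretch with another gene in the files. Of the XRCC4 family, then, XRCC4 and NHEJ1 were as measured within counting error of no difference and PAXX was not.

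The end-binding genes differed little in size of ratio but have small counting errors. XRCC5 (ENSG00000079246), the Ku80 subunit, had 15652 counts in the PKP2 library and 15869 in the vector library, 777 and 669 CPM, a ratio of 0.22 (interval 0.18 to 0.25). XRCC6 (ENSG00000196419), the Ku70 subunit, had 12296 counts in the PKP2 library and 15033 in the vector library, 611 and 634 CPM, with a ratio of -0.05 (interval -0.09 to -0.02). Of its 31-base stretches 21.6% also occur elsewhere in the files, mainly in the pseudogene XRCC6P2, which held 178 counts in the PKP2 library and 169 in the vector library, so its count is less certain. PRKDC (ENSG00000253729), the kinase DNA-PKcs, had 16621 counts in the PKP2 library and 18136 in the vector library, 825 and 764 CPM, a ratio of 0.11 (interval 0.08 to 0.14). Its sign turned after a correction for transcript length (-0.04), and against its 100 neighbours in GC content and length it was -0.03.

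The end-processing genes had lower counts and ratios below 0. DCLRE1C (ENSG00000152457), the Artemis nuclease that opens hairpins and trims overhangs, had 140 counts in the PKP2 library and 198 in the vector library, a ratio of -0.26 (interval -0.59 to 0.06) that takes in 0. POLL (ENSG00000166169), polymerase lambda, had 363 counts in the PKP2 library and 556 in the vector library, and its ratio was -0.38 (interval -0.57 to -0.19). POLM (ENSG00000122678), polymerase mu, had 129 counts in the PKP2 library and 198 in the vector library, and its ratio was also -0.38 (interval -0.71 to -0.05). As measured, the paralogous polymerases thus had like ratios at unequal levels, and with the wide interval of POLM counting does not resolve whether the ratios were equal. The exons of DCLRE1C overlap SUV39H2 on the opposite strand (479 and 597 counts, ratio -0.08), and those of POLL overlap DPCD (292 and 302 counts, ratio 0.19). Whether counting used strand is not given in the sources used here, so reads from these pairs may not have been told apart.

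Counting intervals lay wholly above 0 for 3 members (LIG4, XRCC5 and PRKDC), against 25.9% of all genes, and wholly below 0 for 4 (XRCC6, PAXX, POLL and POLM), against 28.8%. Differences beyond counting error are thus common between these libraries, and counting error is not the spread between cultures. Intervals narrow as counts rise. XRCC5, XRCC6 and PRKDC had at least 12296 counts in each library, while the shares over all genes include genes averaging as few as 10.

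**Figure D2:**
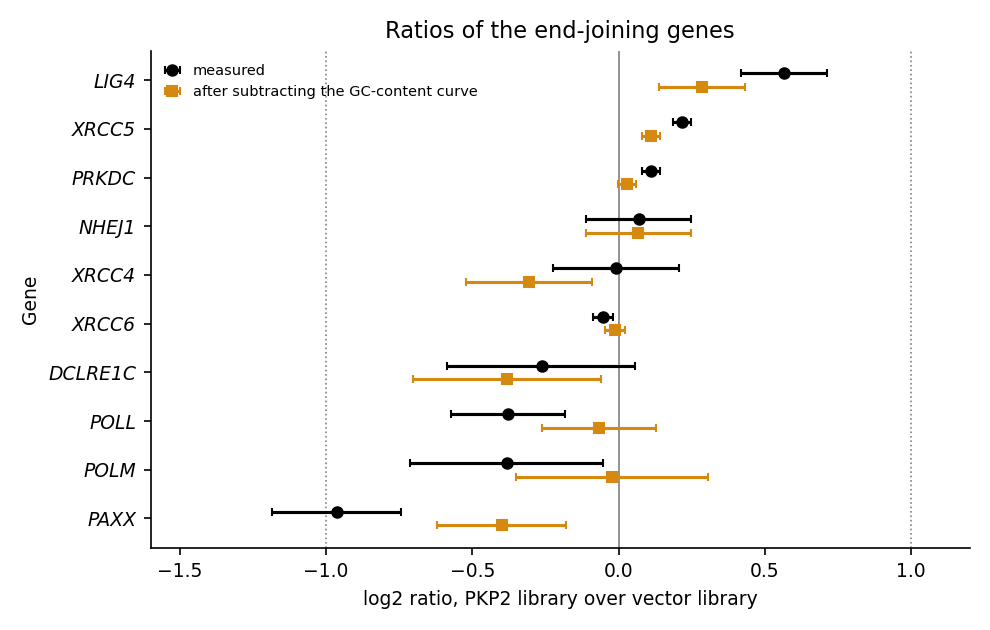
Log2 ratio of each end-joining gene, PKP2 library over vector library, as measured (black circles) and after subtracting the curve of ratio on transcript GC content over all well-counted genes (orange squares). Bars are 95% counting intervals of 1 library per group and dotted lines mark 2-fold; LIG4 is the highest and PAXX the lowest as measured, at 0.57 and -0.96, and both lie nearer 0 after subtraction.

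Ratios were lower at higher transcript GC content over all 11610 genes that averaged at least 100 counts (Spearman's rho -0.61 across genes, which share the same libraries), and also among the end-joining genes (rho -0.72 over 10 genes). Ratios were also higher in longer transcripts, with rho 0.24 over the 11610 genes and 0.61 among the members. PAXX is both the shortest member and the richest in G and C. The 3 members richest in G and C, PAXX, POLM and POLL, had the 3 lowest ratios. Of the printed stretches, those of LIG4 (48 G or C bases of 120) and PAXX (77) were chosen for their ratios. That of XRCC4 has 49 such bases, nearly as few as LIG4, at a ratio of -0.01. The 100 genes nearest to LIG4 in GC content had a median ratio of 0.27, those nearest to PAXX -0.60, those nearest to POLL -0.32 and those nearest to POLM -0.35. The part of GC content and of length in the ratios of single genes was not tested. Values with the GC curve subtracted, a lowess fit over those well-counted genes, are given beside the measured ones.

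With the GC curve subtracted, LIG4 was at 0.28 (counting interval 0.14 to 0.43) and PAXX at -0.40 (-0.62 to -0.18), on the same sides of 0 as measured and less than 1.5-fold from it. POLL was at -0.07 (-0.26 to 0.13) and POLM at -0.02 (-0.35 to 0.31), both then taking in 0. XRCC5 was at 0.11 (0.08 to 0.14), PRKDC at 0.03 (-0.003 to 0.06), XRCC6 at -0.01 (-0.05 to 0.02) and NHEJ1 at 0.07 (-0.11 to 0.25). XRCC4, close to 0 as measured, was at -0.31 (-0.52 to -0.09), and at -0.18 against its neighbours in GC content and length, within its counting interval as measured. DCLRE1C was at -0.38 (-0.70 to -0.06). These intervals hold the counting error of the gene and not that of the curve. With the curve subtracted, LIG4 exceeded 84.0% of all genes, XRCC4 18.5% and PAXX 14.2%. No member was then 1.5-fold higher or lower, against 6.3% of 15893 genes higher and 8.77% lower. The distance from the lowest to the highest member shrank to 0.68 with the curve subtracted, against 1.53 as measured.

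**Figure D3:**
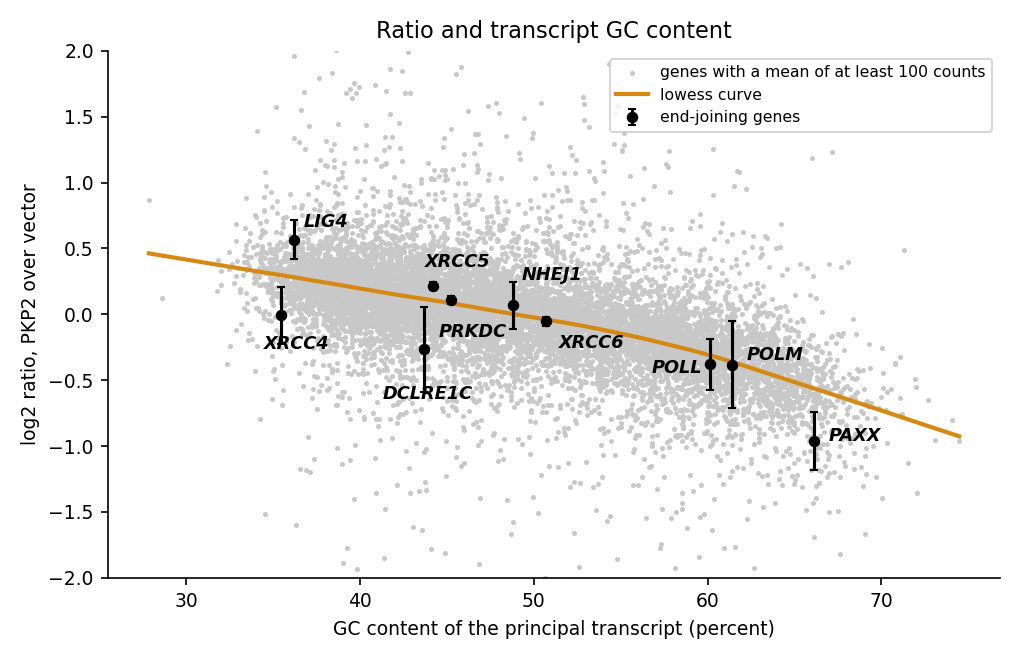
Log2 ratio of PKP2 over vector against GC content of the principal transcript in percent, for genes averaging at least 100 counts (grey), their lowess curve (orange) and the end-joining genes (black, with 95% counting intervals); genes beyond the axis limits are not drawn. POLL, POLM and PAXX lie at the GC-rich, low-ratio end, LIG4 above the curve and XRCC4 below it at nearly the same GC content.

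Ratios between partner genes within a library need no scaling between libraries, and 7 such pairs were set. LIG4 had 2.58 counts per XRCC4 count in the PKP2 library and 1.73 in the vector library, a 1.49-fold higher balance (exact conditional interval 1.24 to 1.78). Per transcript length, there was 1.01 LIG4 per XRCC4 in the PKP2 library and 0.679 in the vector library. These values depend on the length used. With the coding length, LIG4 and XRCC4 were at 18.7 and 19.6 TPM in the PKP2 library and at 12.6 and 19.7 TPM in the vector library. As a log2 difference the change in count balance was 0.57 (interval 0.31 to 0.84). Both genes have nearly the same GC content, so subtracting the GC curve from each could change it little (0.59). The transcripts differ in length, and the difference was 0.45 with the length curve subtracted and 0.49 against the neighbours of each gene in GC content and length, comparisons chosen after the data were seen.

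XRCC5 had 1.27 counts per XRCC6 count in the PKP2 library and 1.06 in the vector library, a 1.21-fold higher balance of RNA counts (interval 1.17 to 1.25). The log2 difference was 0.27, and it was 0.12 with the GC curve subtracted and 0.11 against neighbours in GC content and length. PAXX had 0.740 counts per XRCC4 count in the PKP2 library and 1.43 in the vector library, a log2 difference of -0.95 (interval -1.26 to -0.64) that was -0.09 with the GC curve subtracted and -0.23 against neighbours in GC content and length. For NHEJ1 over XRCC4 the difference was 0.08 (interval -0.20 to 0.36) and with the curve subtracted 0.37, and for POLL over POLM it was 0.003 (interval -0.38 to 0.39). PRKDC over XRCC5 was at -0.11 (interval -0.15 to -0.06), and DCLRE1C over PRKDC, the nuclease over the kinase that activates it, at -0.37 (interval -0.70 to -0.05). With the GC curve subtracted these last 2 pairs were at -0.08 and -0.41, and with the length curve subtracted at -0.23 and -0.17. Against neighbours in GC content and length they were at -0.08 and -0.31. The polymerase pair kept 2.81 POLL counts per POLM count in both libraries.

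**Figure D4:**
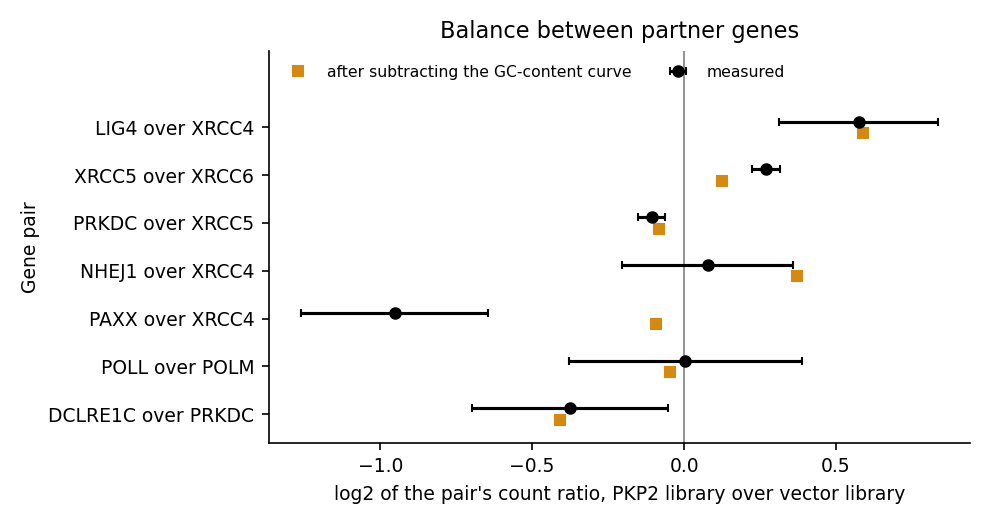
Log2 difference in the count ratio of 7 gene pairs, PKP2 library over vector library, as measured with exact conditional 95% intervals (black) and with the GC-content curve subtracted from each gene (orange). LIG4 over XRCC4 is at 0.57 and 0.59, and the 2 genes have nearly the same GC content, so the subtraction could change this pair little. PAXX over XRCC4 is at -0.95 and -0.09. Taken singly with the curve subtracted, PAXX is at -0.40 and XRCC4 at -0.31.

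Other genes of the pathway were taken from 4 lists. Of 10 accessory factors of end joining above the count minimum (another, IFFO1, was below it), 1 was at least 2-fold higher and none lower, with a median ratio of 0.03, against 2.47% of all genes higher and 4.61% lower. With the GC curve subtracted none was 2-fold higher and 1, DNTT, was lower, against 2.35% and 3.49% of all genes. SETMAR, a fusion of a histone methyltransferase and a transposase domain linked to end joining, had 159 counts in the PKP2 library and 92 in the vector library, a ratio of 1.03 (interval 0.65 to 1.41) that was 0.94 with the GC curve subtracted. DNTT, the template-free polymerase of lymphocytes, had only 6 and 14 counts and a ratio of -0.99 whose interval takes in 0.

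DNA-PKcs and its relatives need the chaperone complex of TELO2, TTI1 and TTI2 to reach a stable level, and 1 of 8 genes of DNA-PKcs and Ku turnover was at least 2-fold lower, with none higher and a median of -0.001, against 4.61% of all genes lower and 2.47% higher. TELO2 had 388 counts in the PKP2 library and 978 in the vector library, a ratio of -1.10 (interval -1.27 to -0.93), and -0.53 with the GC curve subtracted, so that none of the 8 was then 2-fold lower. TTI1 had 646 counts in the PKP2 library and 1028 in the vector library, and its ratio was -0.43 (interval -0.58 to -0.29), or -0.44 with the curve subtracted, while TTI2 was at -0.11 (interval -0.32 to 0.11), a gene looked up after its values were seen. PPP6C, the catalytic subunit of a phosphatase that acts on DNA-PK, was at 0.26 (-0.01 with the curve subtracted). PRKDC, whose protein that complex stabilises, was at 0.11.

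Of all genes, 6.87% were at least 1.5-fold higher and 12.9% lower. All 12 genes of end resection and alternative end joining lay within 1.5-fold, with a median ratio of 0.04. The farthest from 0 were POLQ, the polymerase of the alternative route, at 0.37 (1172 counts in the PKP2 library and 1071 in the vector library), RAD50, a subunit of the end-resecting MRN complex, at 0.27, and the replicative ligase LIG1 at -0.27. With the GC curve subtracted these were 0.19, 0.11 and 0.06. All 13 genes of end protection and break signalling also lay within 1.5-fold, with a median of 0.10. H2AX, the histone phosphorylated at breaks, was at -0.55 (0.02 with the curve subtracted), RIF1, which shields ends from resection, at 0.39 (0.14) and ATM, the kinase that signals breaks, at 0.37 (0.15).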

How the data were processed

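Libraries were prepared from total RNA with Illumina's TruSeq RNA chemistry, per the labels. Bowtie 0.12.2 and the builds GRCh37 and hg19 come from the submitters' processing notes. How reads were counted, with which annotation and whether by strand, is not given in the sources used here. Per the file headers, the authors deposited raw counts for each Ensembl ID. They are classed as estimated counts because 1 damaged row of each deposited file holds a decimal; that row and 1 row with no value were left out, and no rounding was needed.

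Library sizes were totals times edgeR's TMM factors (edgeR 4.0.16, R 4.3.3), for scaling only. The quasi-likelihood test of edgeR could not be fitted to single libraries. CPM, log2 ratios (no pseudocount), exact binomial (Clopper-Pearson) intervals for ratios, Poisson intervals for levels and conditional intervals for pairs were computed with SciPy 1.17.1, at 95%. With 1 library per group, intervals cover counting error only. Reads carried no molecular identifiers, so duplicate reads could not be told apart from separate molecules. TPM used the APPRIS principal transcript of GENCODE 29, which also gave GC content and shared 31-base stretches. Its build differs from that of the files, so it was matched by gene ID. GC and length curves were lowess fits (fraction 0.3, statsmodels 0.14.6) over genes averaging at least 100 counts.

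Members, lists, pairs and thresholds were chosen with earlier results of these data known. Named genes were PKP2, the members, the 3 genes of each list farthest from 0, and genes or pseudogenes overlapping or copying a member. A gene that this rule names is not reported here. Of 22965 IDs, 22579 had a symbol and 22767 a transcript. Alternatives were other scalings (DESeq2 1.42.0 size factors among them), pseudocounts, filters, thresholds, transcript lengths and the GC and length corrections. The steps were tested on simulated counts that held counting error only, with no spread between cultures. Intervals with the GC curve subtracted were not checked there.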

Additional observations from a re-analysis of the deposited data

How the results depend on the processing

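No member was 2-fold higher or lower under any scaling, pseudocount, filter or correction tried, and at 1.5-fold 1 member, PAXX, was lower. The median of the members stayed between -0.08 and 0.004 over its alternatives, and the mean in its place was -0.11. LIG4 stayed above 0 under its 11 alternatives (0.28 to 0.585). It moved beyond its counting interval under 3 of them: 0.28 with the GC curve subtracted, 0.31 against the 100 neighbours in GC content and length, and 0.31 with the GC curve of the longest transcript. PAXX stayed below 0 under its 11 (-0.99 to -0.40) and moved beyond its counting interval under 4. XRCC5 stayed above 0 under its 11 (0.053 to 0.236) and moved beyond its interval under 3. XRCC4, within counting error of 0, was above 0 with DESeq2 size factors (0.001), upper quartile factors (0.0103) and the length curve subtracted (0.0831), and below it under the other 8. Among members whose interval as measured lay wholly on one side of 0, the sign turned for XRCC6 (0.005) and POLM (0.0027) with the GC curve of the longest transcript, and for PRKDC against its neighbours in GC content and length (-0.026) and with the length curve subtracted (-0.035); the cause was not tested. Levels in TPM left their counting interval in 32 of 40 values when the longest transcript or the coding length was used. No paired analysis was possible because each group has 1 library. Among the members depth limits POLM and DCLRE1C most, with 129 and 140 counts in the PKP2 library.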
